A study of Mus musculus with 4 samples.

Results

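WT1 peaks were followed at 9 genes of bone morphogenetic protein (BMP) and transforming growth factor beta (TGF-beta) signalling in the developing mouse kidney: the ligand genes Bmp7 and Bmp4, the genes of the extracellular modulators Bmper and Grem1, and the receptor genes Bmpr2, Bmpr1a, Acvr2b, Tgfbr2 and Tgfbr1. The genes were taken by name from 21887 protein-coding genes, and every deposited peak or region whose midpoint lay in the gene or within 50 kb of it was collected. Chromatin was immunoprecipitated with an antibody against WT1, a zinc-finger transcription factor of kidney progenitors and podocytes, in 2 samples, and with IgG as negative control in 2 others. All 4 samples were whole kidneys dissected from wildtype embryos at E18.5, and the mice were of a mixed background, from C57Bl6 and B6DBA/F1 parents, so the cell types of the kidney were not separated. How many embryos went into a sample is not stated in the labels. The IgG samples were not analysed here. The deposited files give a list of peaks for each WT1 sample, called replicates 1 and 2 below, and a further file of regions that both samples hold, called the overlap table.

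BMP ligands bind a complex of type II and type I serine/threonine kinase receptors, and the activated type I receptor phosphorylates SMAD1, SMAD5 and SMAD9 (pSMAD), whereas TGF-beta ligands act mainly through SMAD2 and SMAD3. Secreted proteins such as gremlin bind BMPs and keep them from their receptors. In the kidney, Bmp7 is needed to maintain nephron progenitors, Bmp4 affects the branching of the ureteric bud, and Grem1 lowers BMP activity so that the bud can grow out. The study's account concerned WT1 and the control of BMP-pSMAD signalling, and the question here is which genes of that pathway had WT1 peaks and where. Peak lists give places, and hold no measure of expression or of SMAD phosphorylation.

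Each list gives 1 value per peak that runs up to 0.0499. It is the authors' p-value or q-value, with no statement of which, and is called the significance value. Each overlap region carries a value read here as a global irreproducible discovery rate (IDR), and those at 0.05 or under are named reproducible regions. The lists hold 53132 and 57641 peaks, and 17234 regions overlap. The files give neither read counts nor heights, so depth is unknown, and with n = 2 samples of 1 group no test was made. Positions are of build mm10, 1-based, and distances run from a region's midpoint.

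The RefSeq table gives 9 promoter windows for 8 of the genes (Tgfbr1 has 2). Of these 300-base windows, 3 were touched by a peak of either replicate (9.94% of all 32851 windows), and they are shown because they place the peaks on the sequence. They are the 250 bases before the annotated start of Tgfbr2 (chr9:116175364-116175613), Bmpr1a (chr14:34502547-34502796) and Bmp4 (chr14:46390670-46390919), all on the minus strand, from the RefSeq annotation of GRCm38.p6. The Bmpr1a bases lie inside the gene body used for distances below, which runs to 34503336. In the Tgfbr2 sequence, which peaks of both replicates cover over its whole length, capitals mark a match to GCGTGGGAG. In the other sequences capitals mark the bases covered by a peak. They number 65 in Bmpr1a (replicate 2, with 58 of them covered in replicate 1 too) and 187 in Bmp4 (replicate 2).
Tgfbr2: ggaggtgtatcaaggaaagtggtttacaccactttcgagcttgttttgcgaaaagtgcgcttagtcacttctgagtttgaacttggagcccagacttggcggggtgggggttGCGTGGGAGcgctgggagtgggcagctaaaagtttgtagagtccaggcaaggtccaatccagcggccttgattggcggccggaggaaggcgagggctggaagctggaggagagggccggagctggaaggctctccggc
Bmpr1a: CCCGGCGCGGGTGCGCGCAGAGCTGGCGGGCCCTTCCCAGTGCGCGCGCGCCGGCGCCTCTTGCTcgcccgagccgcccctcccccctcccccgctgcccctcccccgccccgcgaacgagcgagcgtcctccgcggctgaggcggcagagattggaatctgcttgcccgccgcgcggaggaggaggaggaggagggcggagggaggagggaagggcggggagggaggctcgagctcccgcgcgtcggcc
Bmp4: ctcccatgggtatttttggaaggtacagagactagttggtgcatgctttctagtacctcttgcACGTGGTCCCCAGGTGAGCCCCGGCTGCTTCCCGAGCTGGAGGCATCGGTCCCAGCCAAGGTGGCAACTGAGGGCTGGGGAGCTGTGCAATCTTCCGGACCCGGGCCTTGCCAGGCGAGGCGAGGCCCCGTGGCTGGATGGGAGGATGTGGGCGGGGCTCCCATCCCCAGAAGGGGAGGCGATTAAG

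WT1 is known to bind GC-rich elements such as GCGTGGGAG and, like EGR1, GCGTGGGCG and GCGGGGGCG. These letters were searched on both strands of the 250 bases before 32851 annotated starts, and were chosen with the promoters in view. GCGTGGGAG stood in 0.405% of all these windows, and among the listed genes in that of Tgfbr2, on the strand of the gene from 138 to 130 bases before the start. GCGGGGGCG stood in 2.57% of all windows and in 1 of the 9 of the listed genes, the first start of Tgfbr1, where no peak touched the promoter. GCGTGGGCG stood in 0.536% of all windows and in 0 of the 9. Bmp7 is not among the genes with a promoter sequence used here. A match describes the letters of a window and is not evidence of binding.

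Of the 9 genes, 7 had at least 1 reproducible region (26.1% of all protein-coding genes did), and 8 had at least 1 overlap region at any IDR (57.0% of all genes). Bmp7 had 5 reproducible regions, Bmpr1a 4, Bmpr2 2, and Bmp4, Bmper, Acvr2b and Tgfbr2 1 each, while Grem1 and Tgfbr1 had 0. The median was 1 region per gene, against 0 over all protein-coding genes. All 9 had peaks of both replicates in their windows, as did most genes (84.4% of all genes for replicate 1 and 83.3% for replicate 2). The genes were chosen with results of these data known and are long, at a median of 72.3 kb against 17.2 kb for all protein-coding genes. Among the 3463 protein-coding genes of at least 72.3 kb, 39.9% had a reproducible region. Bmp4, Grem1, Acvr2b and Tgfbr1 are shorter and fall outside that class.

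**Figure D1:**
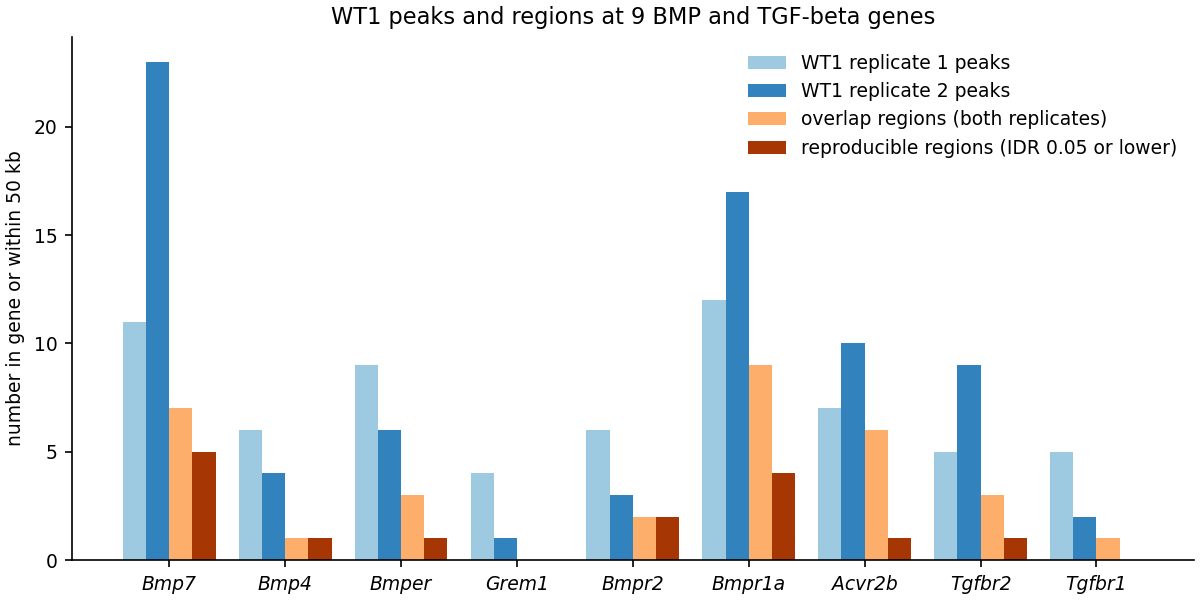
Number of WT1 peaks in replicate 1 and replicate 2, of regions found in both, and of reproducible regions (IDR of 0.05 or lower), in each gene or within 50 kb of it. Bmp7 and Bmpr1a hold 9 of the 15 reproducible regions, and Grem1 and Tgfbr1 have none.

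Fewer of these regions had the listed gene as their nearest protein-coding gene. Of the 15 reproducible regions, 9 did, and by that rule 5 of the 9 genes kept a region (12.2% of all protein-coding genes): Bmp7, Bmp4, Bmper, Bmpr2 and Tgfbr2. The other 6 regions lay nearer to, or inside, Spo11, Fam25c, Mmrn2, Ldb3 and Exog. By place, 3 of the 15 lay inside the listed gene, 1 each in Bmp7, Bmp4 and Bmper (7.95% of all genes held one inside), 2 lay outside within 1 kb of a gene end, and 7 were more than 10 kb from either end. The peak lists cannot tell which gene a distant region acts on.

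**Figure D2:**
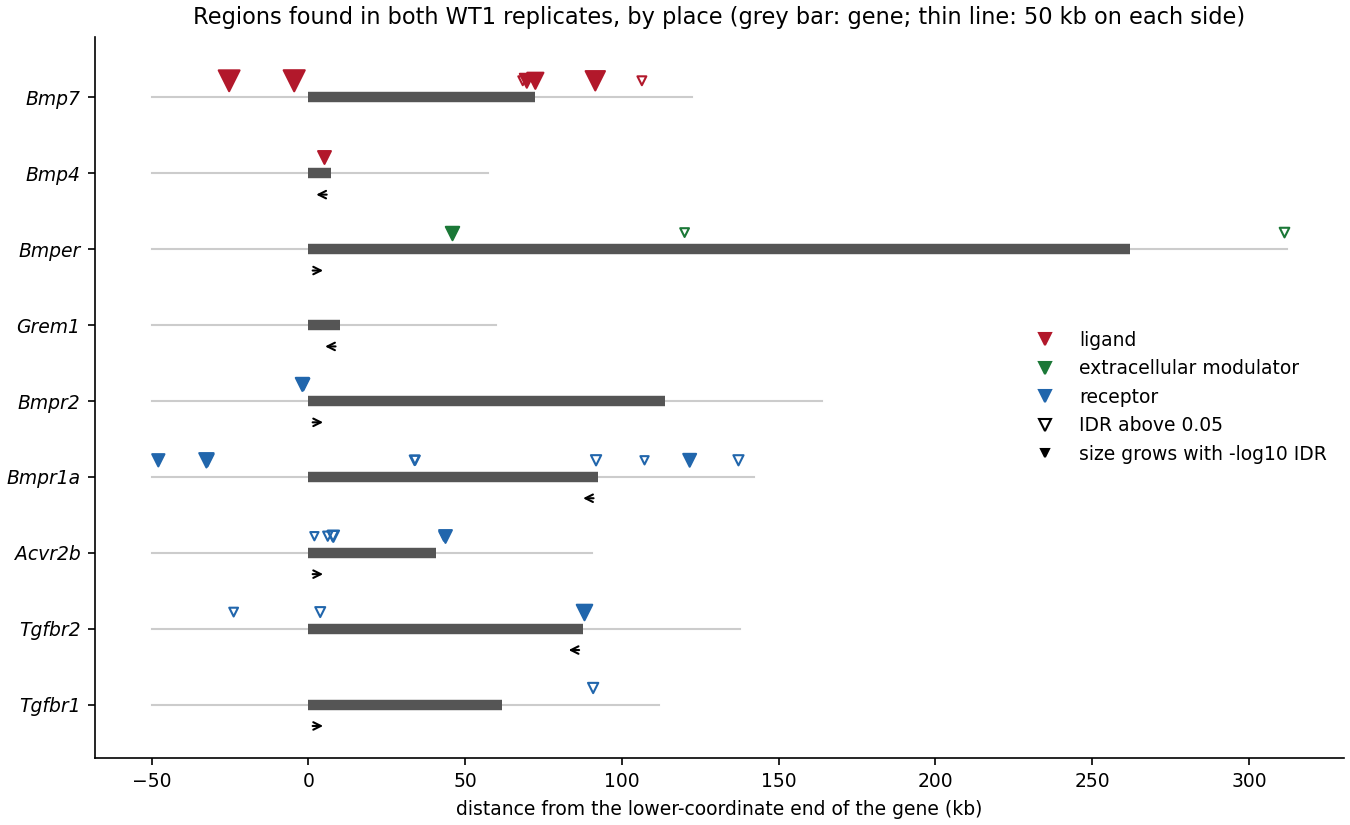
Place of every region found in both replicates, as distance in kb from the lower-coordinate end of each gene. Filled triangles are reproducible, open ones have an IDR above 0.05, triangle size grows with -log10 IDR, grey bars are the genes, thin lines the 50 kb on each side, and arrows mark the 5' end of the gene where its strand is known here. The largest triangles stand outside Bmp7, and those of Bmpr1a with an IDR of 0.05 or lower all lie outside the gene.

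Among the ligands, Bmp7 (chromosome 2, 172868012 to 172940321) carried the strongest signal of the list. Its 5 reproducible regions spread over 118 kb, and 0.397% of all protein-coding genes had at least as many. The region with the lowest IDR, 3.43e-07 and rank 70 of all overlap regions, lay at 172863031 to 172863893, 4.55 kb outside the lower-coordinate end. It overlapped the noncoding genes 1700055K11Rik and Gm36254. Its significance value was 7.96e-37 in replicate 1 and 2.94e-96 in replicate 2, which places it 137th and 54th in the lists. The region at 172842371 to 172843044, 25.3 kb outside the same end, was close behind, with an IDR of 4.97e-07 and values of 9.44e-32 in replicate 1 and 7.57e-61 in replicate 2. It ranked 190th and 183rd in the lists, so both replicates placed these distant regions near the top. Counted from that end, the gene body held no reproducible region before 69.7 kb.

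Towards the other end of Bmp7 were 3 more regions, all with a higher IDR. One at 172940277 to 172940489 spanned the higher-coordinate end of the gene, with an IDR of 0.000364 and values of 8.28e-11 in replicate 1 and 2.54e-11 in replicate 2. It was 213 bp wide, against 863 bp for the strongest region. Another lay inside the gene, 2.66 kb from that end, with values of 7.47e-05 in replicate 1 and 6.14e-11 in replicate 2 (IDR 0.00441). It overlapped the noncoding gene Gm40010. The last lay 19.2 kb beyond the end at 172959111 to 172959904, with values of 2.68e-14 in replicate 1 and 3.37e-30 in replicate 2 (IDR 5.10e-06). It was 17.9 kb from Spo11, a gene of meiotic recombination, which is the nearer gene. Replicate 2 gave the lower value in each of the 5.

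Most replicate 2 peaks at Bmp7, and fewer of replicate 1, had no counterpart in the other list. Replicate 1 had 11 peaks there and replicate 2 had 23, of which 7 in each overlapped. In the rest of the lists 34.1% of replicate 1 and 30.7% of replicate 2 peaks were shared. An unshared majority in replicate 2 was therefore not particular to Bmp7. The lowest value among the 4 unshared peaks of replicate 1 at Bmp7 was 0.0106. Among the 16 unshared peaks of replicate 2 it was 2.24e-05, for a peak 34.3 kb beyond the higher-coordinate end. The 5 reproducible regions had values of 7.47e-05 or lower in both replicates.

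**Figure D3:**
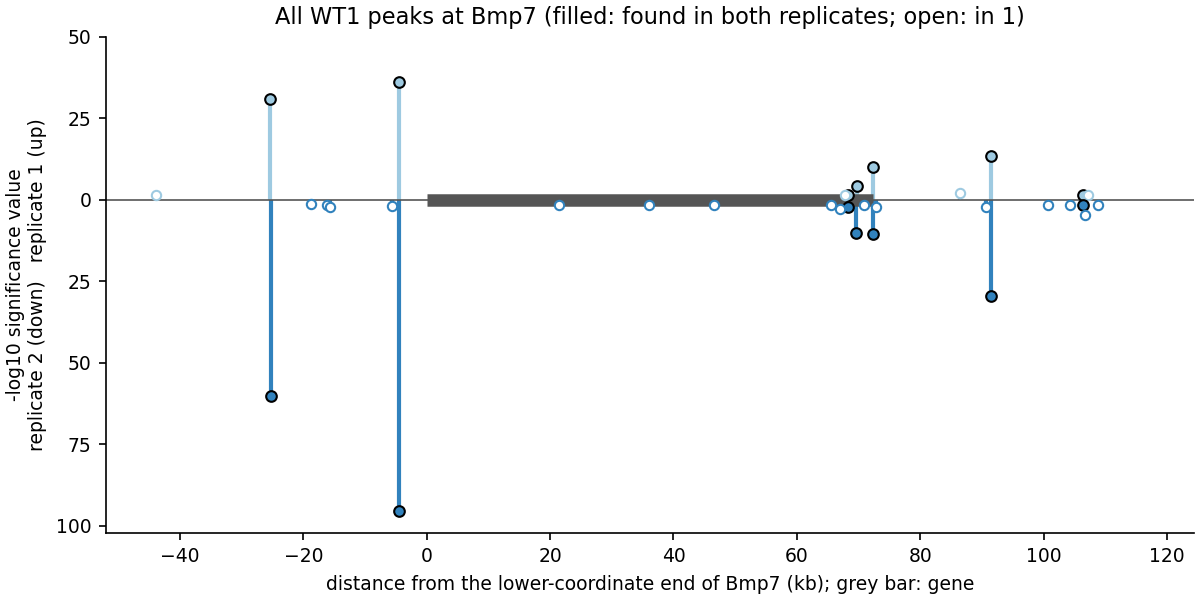
All peaks at Bmp7, with the -log10 significance value upward for replicate 1 and downward for replicate 2, against the distance in kb from the lower-coordinate end (grey bar: gene). The tallest peaks, 4.55 and 25.3 kb outside the gene, appear in both replicates, and open points, found in 1 replicate, stay close to the axis.

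Bmp4 (chromosome 14, 46383525 to 46390669), the ligand gene close to Bmp2 in sequence, had 1 reproducible region. It lay inside the gene at 46388172 to 46388474, 2.35 kb after the annotated start, and overlapped the noncoding gene Gm15222. Its values were 7.39e-06 in replicate 1 and 2.78e-07 in replicate 2, with an IDR of 0.0140, so it was not among the regions at an IDR of 0.01. Near the start itself the replicates did not overlap. Replicate 2 had a peak at 46390465 to 46390856, across the start, with a value of 0.00280, and replicate 1 had one centred 1.05 kb before the start, at 46391616 to 46391831, with a value of 0.00196. Of 6 peaks of replicate 1 and 4 of replicate 2 at Bmp4, 1 of each was shared. In the rest of the lists 34.1% of replicate 1 and 30.7% of replicate 2 peaks were shared.

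Among the modulators, Bmper, whose secreted product binds BMPs and can lower or raise their signalling, had 1 reproducible region in a gene of 262 kb (chromosome 9, 23223076 to 23485215). It lay inside the gene at 23268698 to 23268984, with values of 2.15e-12 in replicate 1 and 3.4e-07 in replicate 2. The replicates ranked it differently, at 989 and 4663 in their lists, and the IDR was 0.00806. It was the only reproducible region in a window of 362 kb, which is 0.276 per 100 kb (0.166 in the chromosomes outside the windows of the 9 genes). The Bmper window also held 2 regions with an IDR of 0.215 and 0.393. The top 4411 peaks, as many as there are reproducible regions, were also taken from each replicate alone. From replicate 2 neither Bmper nor Bmp4 kept a peak (26.2% of all genes did), and from replicate 1 each kept 1 (24.7% of all genes). In replicate 2 the peaks of these regions ranked 4663 at Bmper and 4607 at Bmp4, just past that cutoff.

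Grem1 (chromosome 2, 113748675 to 113758648), which encodes the BMP antagonist gremlin, had 4 peaks of replicate 1 and 1 of replicate 2, and none overlapped. In the rest of the lists 34.1% of replicate 1 and 30.7% of replicate 2 peaks did, so most peaks there were unshared too. Values at Grem1 ran from 0.0118 to 0.0215 in replicate 1 and stood at 0.0143 in replicate 2. The single peak of replicate 2 lay inside the gene, 4.78 kb after the annotated start, and the 4 of replicate 1 lay outside it. A site that both samples held at this threshold was thus not detected at Grem1.

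The receptor genes had reproducible regions in 4 of 5 cases (26.1% of all protein-coding genes had a region in this window). Among protein-coding genes of at least 72.3 kb, a length that Acvr2b and Tgfbr1 do not reach, 39.9% had one. There were 8 regions at the receptor genes in all, none of them inside the gene. By the nearest-gene rule 2 of the 5, Bmpr2 and Tgfbr2, kept a region, and 5 of the 8 regions were nearer to another gene. Tgfbr2 (chromosome 9, 116087695 to 116175363), the type II receptor for TGF-beta, had the one placed at a promoter. It lay at 116175309 to 116175923, centred 253 bases before the annotated start, with values of 1.26e-11 in replicate 1 and 3.17e-10 in replicate 2 (IDR 0.000779). It covered all 250 bases printed above, the GCGTGGGAG match included, and overlapped the noncoding gene Gm40582. Of 8 listed genes with an annotated start, Tgfbr2 was the only one with a reproducible region within 1 kb of it (4.05% of 17492 protein-coding genes). Bmp7 has no annotated start here and is outside that count, though a reproducible region spanned its higher-coordinate end (IDR 0.000364). The Tgfbr2 window also held 2 regions with an IDR of 0.167 and 0.386.

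Bmpr2 (chromosome 1, 59764279 to 59878081), the type II receptor of BMPs, had its regions before the start. The first, at 59762140 to 59762499, was centred 1.96 kb before it, with values of 3.18e-05 in replicate 1 and 6.14e-11 in replicate 2 (IDR 0.0108). The second, at 59762571 to 59762762, was centred 1.61 kb before it, with values of 0.00107 in replicate 1 and 9.81e-08 in replicate 2 (IDR 0.0341). The gap between them was 71 bp, and Bmpr2 was the nearest gene of both. Neither passed at an IDR of 0.01.

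At Bmpr1a (chromosome 14, 34411061 to 34503336), a type I receptor of BMPs, 4 reproducible regions were found, a number that 1.06% of all protein-coding genes reached or passed, but none had Bmpr1a as the nearest gene. On the 3' side, a pair lay inside Mmrn2, which encodes an endothelial matrix protein, separated by 50 bp. The stronger, at 34378340 to 34378670, had values of 2.55e-05 in replicate 1 and 6.72e-10 in replicate 2 (IDR 0.00297), and lay 32.6 kb from Bmpr1a. The weaker had an IDR of 0.0259, and another region, nearest to Fam25c and 47.9 kb from Bmpr1a, had an IDR of 0.0246.

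On the 5' side of Bmpr1a the reproducible region lay inside Ldb3, a gene of the muscle Z-disc, 30.1 kb before the annotated start. Its values were 3.97e-15 in replicate 1 and 1.46e-06 in replicate 2, ranks 722 and 5237, with an IDR of 0.0134. The promoter of Bmpr1a, in contrast, had a region that did not pass, with an IDR of 0.134 at 34502732 to 34502869. Its value was 0.00845 in replicate 1 and 1.97e-08 in replicate 2, ranks 13286 and 3849 of the lists. It covers the 65 bases in capitals above. The annotated start used here, 34502546, lies inside the gene body, so this region is inside the gene, 0.536 kb from its higher-coordinate end. In all, the Bmpr1a window held 5 regions with an IDR above the threshold.

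Acvr2b (chromosome 9, 119401583 to 119442148), a type II receptor of activins and some BMPs, held 6 regions of which 1 passed. That one lay 2.89 kb past its 3' end at 119444913 to 119445170, inside Exog, a mitochondrial nuclease gene, with values of 0.00014 in replicate 1 and 1.48e-07 in replicate 2 (IDR 0.0146). Inside Acvr2b itself, 4 regions did not pass. The closest to the threshold, at 119409413 to 119409681 and 7.37 kb after the annotated start, had values of 0.00333 in replicate 1 and 2.18e-08 in replicate 2 and an IDR of 0.0600. All 7 peaks of replicate 1 at Acvr2b overlapped a peak of replicate 2 (34.1% of replicate 1 peaks in the rest of the list did).

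Tgfbr1 (chromosome 4, 47353222 to 47414926), the type I receptor for TGF-beta, had no reproducible region. Its only region found in both replicates lay 29.1 kb past the 3' end, with values of 0.0371 in replicate 1 and 0.0197 in replicate 2 and an IDR of 0.133. The lowest value at Tgfbr1 was 0.00347, in a peak of replicate 1 that lay 16.7 kb before the annotated start and had no counterpart in replicate 2. Replicate 2 alone had a weak peak at 47352215 to 47352360, 0.935 kb before the annotated start of Tgfbr1, with a value of 0.0193.

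The share of peaks that both replicates held was higher at the 9 genes than in the rest of the lists, a difference given with intervals and not tested. Of the replicate 1 peaks, 34 of 65 overlapped a replicate 2 peak (52.3%, exact Clopper-Pearson 95% interval 39.5 to 64.9), against 34.1% (33.7 to 34.5) of the other peaks. Of the replicate 2 peaks, 32 of 75 overlapped (42.7%, 31.3 to 54.6), against 30.7% (30.4 to 31.1). The 2 shares count the same overlaps from either side. In replicate 1 the shared peaks were 7 of 7 at Acvr2b, 9 of 12 at Bmpr1a and 7 of 11 at Bmp7. They were 3 of 5 at Tgfbr2, 3 of 6 at Bmpr2 and 3 of 9 at Bmper. At Bmp4, Tgfbr1 and Grem1 they were 1 of 6, 1 of 5 and 0 of 4. The intervals cover counting error over peaks only and treat neighbouring peaks as independent. The genes were chosen with such results known. Shared peaks at the 9 genes had lower significance values, with medians of 0.00300 against 0.0314 for unshared ones in replicate 1, and of 1.63e-06 against 0.0183 in replicate 2. In the rest of the lists these medians were 0.00938 against 0.0267 in replicate 1 and 0.00122 against 0.0161 in replicate 2. In 12 of the 15 reproducible regions replicate 2 gave the lower value, as in 90.4% of the other 4396 reproducible regions, the exceptions being those at Bmper, Tgfbr2 and, inside Ldb3, Bmpr1a.

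**Figure D4:**
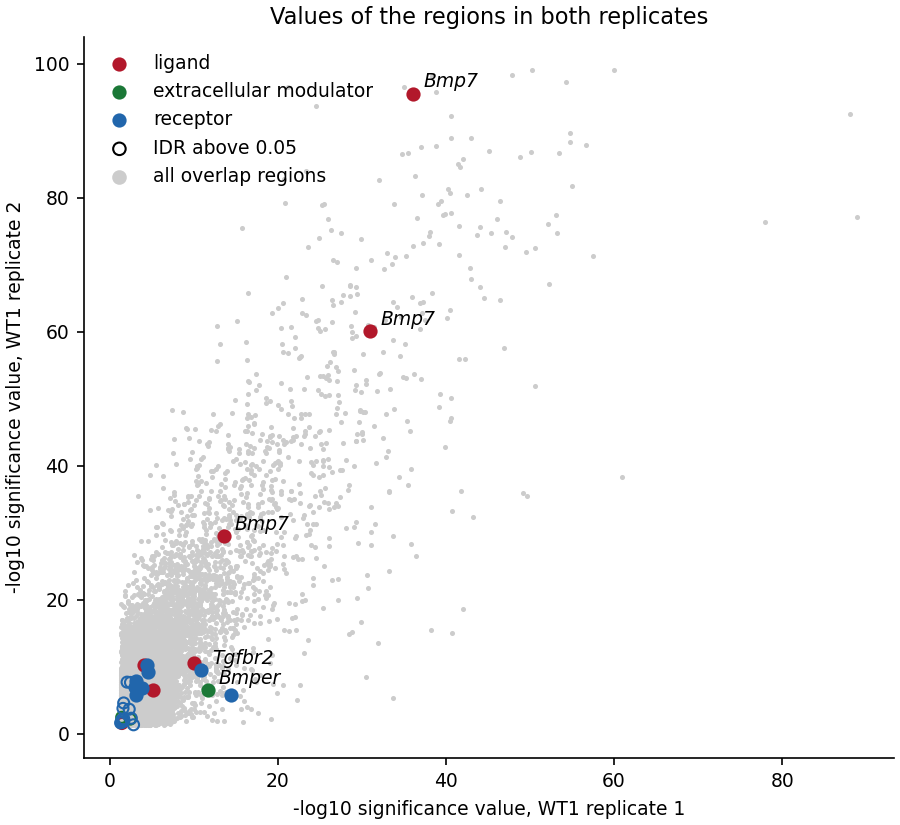
The -log10 significance value in replicate 1 (x axis) and replicate 2 (y axis) of each region found in both, coloured by role at the 9 genes and grey for all 17189 regions with values above 0. Not drawn are 45 regions with a value of 0 in a sample, lower than any value shown. The Bmp7 regions 4.55 and 25.3 kb outside the gene stand far up along the drawn cloud. Another, 19.2 kb outside, lies between, while the other Bmp7 regions lie near the lower end of the cloud with those of the other genes.

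Per length, the windows of the 9 genes held 0.910 reproducible regions per 100 kb against 0.166 in the rest of the chromosomes. That rest includes stretches far from genes, so it is not a density in windows of other genes. Bmp7 and Bmpr1a held 9 of the 15 regions, and 6 of the 15 were nearest to another gene. The genes were chosen with results of these data known, and the difference was not tested. For single peaks the densities were 3.95 against 2.01 per 100 kb in replicate 1 and 4.55 against 2.18 in replicate 2. Their median IDR was 0.00806 against 0.00262 for the other reproducible regions, and their median width 331 bp against 372.5 bp. At an IDR of 0.01, 8 of the 15 remained, in the windows of 4 genes (19.6% of all genes): Bmp7, Bmper, Bmpr1a and Tgfbr2.

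The rest of the pathway was read from a list of 90 other genes, of which 34 (37.8%) had a reproducible region in the same window, against 26.1% of all protein-coding genes. By role, 9 of 14 receptors and coreceptors (64.3%), 10 of 20 intracellular signalling genes (50%), 8 of 25 extracellular modulators (32.0%) and 7 of 31 ligands (22.6%) had one. The median number of regions per gene was 0, as over all genes. No test was made over the list. Gene length was not matched in these comparisons, and among protein-coding genes of at least 72.3 kb the share was 39.9%.

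Ligand genes other than Bmp7 and Bmp4 had their lowest-IDR region nearest to another gene in 7 of 7 cases, which are 6 regions because Inhbc and Inhbe share one. Over all 5711 protein-coding genes with a reproducible region that share was 57.8%. In other roles the gene itself was nearest in 6 of 9 receptors and coreceptors, 8 of 10 intracellular genes and 6 of 8 modulators. The lowest-IDR region of Tgfb3 was nearest to Ttll5, with values of 2.19e-41 in replicate 1 and 5.65e-93 in replicate 2. That of Gdf15, a stress-induced ligand with 5 reproducible regions, was nearest to Ssbp4 (IDR 5.16e-07), and that of Nodal, a ligand of early axis formation, to Pald1 (IDR 7.92e-06). Among the receptors, Acvr1b, a type I activin receptor, had a region 385 bp from its end, with values of 2.46e-19 in replicate 1 and 1.42e-42 in replicate 2. The same region was the lowest at Acvrl1, whose window overlaps. That of Hjv, which encodes the BMP coreceptor hemojuvelin, was nearest to Polr3gl (IDR 2.05e-05).

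Among the other modulators, Sost had 6 reproducible regions, the lowest 246 bp from its end, with values of 3.87e-27 in replicate 1 and 9.28e-40 in replicate 2. Its product sclerostin is best known as a Wnt inhibitor of bone. Chrd, which encodes the BMP antagonist chordin, had 2 reproducible regions, the lowest of them nearest to Clcn2 (IDR 4.70e-07). The region at Ltbp2, a latent TGF-beta binding protein family gene, lay inside the gene (IDR 8.78e-05). Inside the cell, Smad3, the transducer of TGF-beta signals, had 5 reproducible regions, the lowest at IDR 1.53e-05 and 22.5 kb from the gene. Tgif1, a corepressor of SMADs, had 3, the lowest inside the gene (IDR 3.85e-06). The region at Ski, another SMAD corepressor, was nearest to Faap20 (IDR 6.70e-06).

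**Figure D5:**
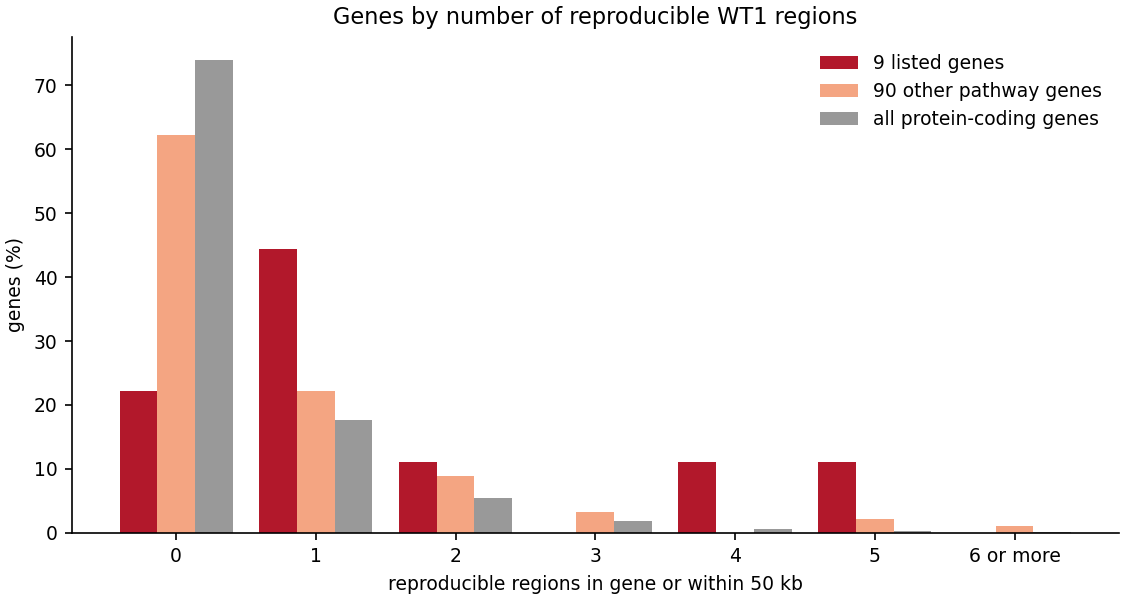
Share of genes (y axis, %) by number of reproducible regions in the gene or within 50 kb, for the 9 genes, the 90 other pathway genes and all 21887 protein-coding genes. No region was found for 22.2%, 62.2% and 73.9% of them in that order.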

How the data were processed

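WT1 chromatin immunoprecipitation and sequencing was carried out on 2 samples, with 2 IgG samples as controls that were not analysed here. Per the labels' protocols, the DNA was digested by MseI together with either AluI or HaeIII, and libraries were then amplified over 18 PCR rounds. The deposited lists give a p-value or q-value per peak, and the deposited table an error rate per region read as a global IDR, a q-value-like measure. The build is mm10, per the submitters' processing notes. How reads were aligned and peaks called, and whether IgG reads entered the calls, is something not given in the sources used here.

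Gene positions, strands and promoter sequences came from RefSeq tables of GRCm38.p6, the assembly behind mm10. Of 90 listed pathway genes other than the 9, 90 matched by symbol, and 8 of the 9 had a promoter sequence. Counts were made in Python 3.11.15 with pandas 2.3.3, numpy 2.4.6 and scipy 1.17.1, and a peak was shared when a peak of the other replicate covered 1 bp of it or more. Counts of genes with a region are given beside the share of all protein-coding genes called by the same rule. Functions for windows, overlaps and motifs were tested on simulated data. The genes and lists were chosen with earlier results of these data known. Text names the 9 genes, protein-coding genes nearer to their regions, and the 3 pathway genes of each role with the lowest IDR; noncoding genes that regions overlap were named after their positions were seen. Alternatives were other IDR thresholds and windows, any overlap with the window, each replicate alone, a reciprocal overlap of 50% and, added after the data were seen, regions with the gene as nearest.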

Additional observations from a re-analysis of the deposited data

How the results depend on the processing

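At an IDR of 0.01, 4 of the 9 genes and 8 regions remained (19.6% of all genes), and with the gene body alone 3 genes, 3 regions and 13 other pathway genes (7.95% of all genes). With a window of 10 kb there were 9 regions and 17 other pathway genes (13.6% of all genes), and with regions that have the gene as nearest, a rule added after the data were seen, 9 regions and 22 other pathway genes (12.2% of all genes). With all regions of the overlap table there were 32 regions and 68 other pathway genes (57.0% of all genes). Each of these settings counts fewer or more regions by construction. Leaving out a replicate gave 5 to 7 genes, 12 to 13 peaks and 32 to 36 other pathway genes (24.7% to 26.2% of all genes). Bmp4 and Bmper had none from replicate 2 alone, where their lowest-value peaks ranked 4607 and 4663 against a cutoff of 4411. With values of 0.01 or lower required in both lists, the share of peaks at the 9 genes that overlapped was 80.8% (21 of 26) in replicate 1 and 50% (20 of 40) in replicate 2. The cause was not tested. The share of all peaks under the same rule is not given here, so whether these values are particular to the 9 genes is unknown. No count changed by more than 1.5 times with an IDR of 0.1, a 100 kb window or any overlap with the window, among the totals of the 9 genes, their regions and the other pathway genes. Depth is unknown, so a gene without a region had none detectable at these thresholds. No paired analysis was possible because the results come from no test and the files used here hold values of the WT1 samples only.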

Other observations

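Edges of peaks were read against sequence where they fell in 300-base promoter windows of the RefSeq table. In replicate 1, 24.4% of 994 lower-coordinate edges fell exactly at the AluI cut in AGCT and 6.44% at the MseI cut in TTAA, against 0.526% and 0.323% of all positions in these windows. In replicate 2 the shares were 17.1% and 5.64% of 1683 edges. For the GGCC site of HaeIII they were 0.704% in replicate 1 and 0.654% in replicate 2, against 0.611% of all positions. The higher-coordinate edges gave 21.7% and 6.47% in replicate 1 and 15.9% and 5.95% in replicate 2 for AluI and MseI, and 0.308% and 1.52% for HaeIII. At the listed genes, the lower-coordinate edge of the replicate 2 peak at the Tgfbr2 promoter, 116175345, was such an AluI site. The edges of the Bmpr1a and Bmp4 peaks that lay in these windows fell on none of the 3 sites.

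Neighbouring regions under 500 bp apart occurred in 5 pairs, at Acvr2b, Bmpr1a and Bmpr2, with gaps of 10 to 77 bp. Counts of regions at these genes are therefore counts of deposited intervals. Of the 15 reproducible regions, 3 had the same start base in both replicates, 4 the same end base and 9 neither.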
